A study of Homo sapiens with 18 samples.

Results

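Messenger RNAs of 50 ribosome biogenesis factors were followed in VCaP cells. The genes are a list of proteins of the nucleolus and of ribosomal RNA (rRNA) processing. The rule for the list names functions and uses no expression value, but it was drawn up with earlier results of these data known. All 50 of the listed genes were found among the 22034 genes of the count table, and all 50 passed the filter on low counts, which kept 14164 genes. They fall into 6 classes, with 4 core proteins of box C/D small nucleolar ribonucleoproteins (snoRNPs), 4 core proteins of box H/ACA snoRNPs, 5 nucleolar phosphoproteins and chaperones, 15 factors of the small ribosomal subunit, 16 factors of the large subunit and 6 factors of RNA polymerase I.

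VCaP is a prostate cancer cell line with the TMPRSS2:ERG gene fusion, through which the transcription factor ERG is expressed. In the knockdown experiment, VCaP-shERG cells, which carry a doxycycline-inducible hairpin against ERG in the pLKO-Tet-on-puro system, received DMSO (shERG DMSO) or doxycycline at 1 µg/mL (Dox), and the length of Dox treatment is not given in the labels. In the inhibitor experiment, parental VCaP cells without the hairpin received DMSO or 50 µM PBITE-1, a small molecule that binds the PNT domain of ERG, over 4, 8 or 12 h. Every group had 3 samples, and 1 set of 3 DMSO samples, with no time in the labels, is the control of all 3 PBITE-1 times. Parental cells with Dox were not analysed here.

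Ribosomes are built in the nucleolus, where RNA polymerase I transcribes a long precursor that is cut and trimmed into the mature rRNAs of both subunits. Box C/D snoRNPs guide 2'-O-methylation and box H/ACA snoRNPs guide pseudouridylation of that precursor, and separate sets of assembly factors, helicases and GTPases fold and process the small and large subunit particles. In growing cancer cells many of these genes are known targets of the transcription factor MYC, which binds the E-box sequence CACGTG.

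Library totals ranged from 11308600 to 17483423 counts. Normalised read counts are given as CPM, counts scaled to library size multiplied by a TMM normalisation factor found within each experiment. "Called" means an adjusted p under 0.05 together with an absolute log2 fold change above 1. ERG, the target of the hairpin, measured 461, 449 and 433 CPM in the 3 shERG DMSO samples and 166, 167 and 159 CPM in the 3 Dox samples. In parental cells ERG measured 280.02, 289.5 and 298 CPM in DMSO, 178, 184 and 178 at 4 h, 96.6, 93.96 and 90.7 at 8 h and 102, 88.5 and 101 at 12 h of PBITE-1, so that it was lower in every treated group of both experiments. All 8 prostate luminal markers were detected, and their summed count was 84764 to 103104 in shERG DMSO and 51963 to 56415 after Dox. In parental cells it was 75168 to 89228 in DMSO, and with PBITE-1 it was between 52777 and 61015 at 4 h, between 35944 and 55807 at 8 h, and between 41579 and 46105 at 12 h. Leukocyte and endothelial markers reached at most 28 counts. The summed count of 4 fibroblast markers was 14 to 24 in shERG DMSO and 72 to 86 after Dox, and 20 to 29 in DMSO. With PBITE-1 it lay between 29 and 46 at 4 h, between 59 and 96 at 8 h, and between 62 and 112 at 12 h. Nearly all of it was COL1A1, while the defining fibroblast markers COL1A2 and DCN stood at 2 counts or fewer in every library. The part of these marker changes in the results was not tested. In a culture sequenced in bulk, less RNA per cell and fewer cells of a kind cannot be told apart.

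Most of the ribosome biogenesis factors were lower in each treated group than in its control, and their median fell further at each later time of PBITE-1. After Dox, 33 of the 50 genes were called lower and 0 higher, where 7.19% of all genes tested were called lower and 12% higher. At 4 h of PBITE-1, 4 were called lower and 0 higher, against 2.99% and 7.28% of all genes. At 8 h the count was 18 lower and 0 higher, against 8.86% and 14.9%. At 12 h it was 33 lower and 0 higher, against 15.4% and 17.1%. The median log2 fold change of the 50 genes was -1.14 after Dox and -0.24, -0.69 and -1.39 at 4, 8 and 12 h, while the median of all genes tested was 0.018, -0.0074, -0.023 and -0.0077.

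By the adjusted p alone, limma placed all 50 genes lower after Dox, where 35.3% of all genes were lower, and all 50 lower at 12 h, where 39.4% were. At 4 h, 37 were lower and 2 higher, against 24.7% and 26.4% of all genes. At 8 h, 47 were lower and 1 higher, against 37% and 35.9%. All 3 treated samples lay below all 3 control samples for 50 of the 50 genes after Dox, 36 at 4 h, 47 at 8 h and 50 at 12 h, against 36.4%, 27.9%, 37.9% and 39.4% of all genes. They lay above for 0, 2, 1 and 0 genes, against 36.2%, 28.6%, 36.7% and 39.2%. The zeros for called higher genes were the same with edgeR's quasi-likelihood test and DESeq2. With an unadjusted p under 0.05, the number higher was 0 after Dox, 3 at 4 h, 1 at 8 h and 0 at 12 h.

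Measured as a share of all counts, the 50 genes together took 0.790% to 0.812% of each shERG DMSO library and 0.406% to 0.415% of each Dox library. In parental cells the share was 0.726% to 0.755% in DMSO. With PBITE-1 it was between 0.628% and 0.655% at 4 h, between 0.481% and 0.490% at 8 h, and between 0.329% and 0.340% at 12 h. No 2 of these ranges overlapped within an experiment.

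**Figure D1:**
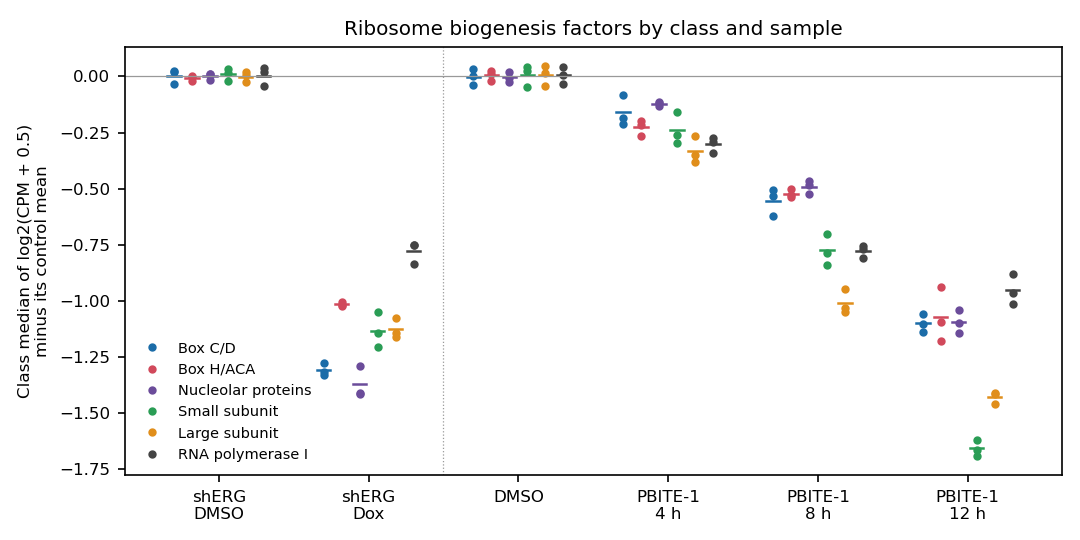
Each point is 1 sample, and gives the median over a class of log2(CPM + 0.5) minus the gene's mean in the DMSO samples of the same experiment (y axis, log2 units); short lines are means of 3 samples, and the dotted line separates the experiments. All 6 classes lie below 0 in every treated group, and at 12 h the small subunit and large subunit classes lie lowest.

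The classes differed in the size of their fall, which is described here by medians with no test. After Dox the median log2 fold change was -1.38 for the nucleolar phosphoproteins and chaperones, -1.32 for box C/D, -1.17 for the small subunit, -1.17 for the large subunit, -1.03 for box H/ACA and -0.78 for RNA polymerase I. At 12 h of PBITE-1 the order was another one, with -1.67 for the small subunit, -1.47 for the large subunit, -1.11 for box C/D, -1.09 for the nucleolar phosphoproteins and chaperones, -1.09 for box H/ACA and -0.96 for RNA polymerase I. The 2 subunit processing classes, with 31 of the 50 genes, held 14 of the 18 called at 8 h, 22 of the 33 called at 12 h and 21 of the 33 called after Dox. The counts at 12 h and after Dox are near the share that these classes hold of the 50 genes.

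**Figure D2:**
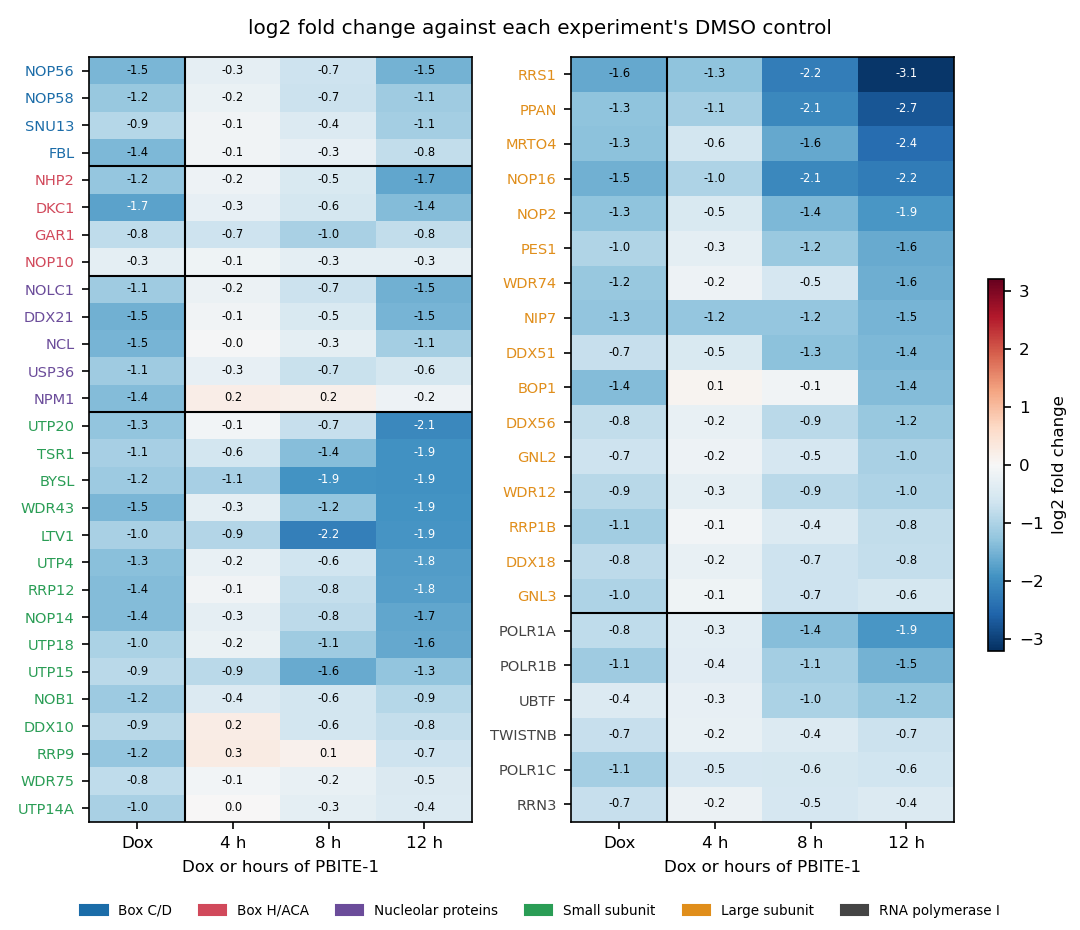
Each cell is the log2 fold change of 1 gene (rows, names coloured by class and sorted within it by the value at 12 h) after Dox against shERG DMSO, or after 4, 8 or 12 h of PBITE-1 against DMSO (columns), with n = 3 samples per group. The Dox column is blue for all 50 genes, and 43 of the 50 genes have their lowest PBITE-1 value at 12 h, down to -3.10 for RRS1 and -2.73 for PPAN. NPM1 is at 0.20, 0.17 and -0.17 at the 3 times.

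Because these genes move together, their promoters were searched for an E-box and for a sequence read by ETS factors, the family of ERG. RefSeq promoters (GRCh38.p14, 250 bases before to 50 bases after the start) were at hand for 42 of the 50 genes, and the entries for NOP58, SNU13, NOLC1, RRP12, RRP1B, BOP1, RRS1 and DDX18 are missing. The palindrome CACGTG, which reads alike on both strands, was in 16 of the 42 promoters (38.1%), in 9.89% of the 10684 promoters of genes tested and in 7.43% of all 27305 promoters. The ETS sequence CCGGAAG, searched on both strands, was also in 16 (38.1%), against 18.6% and 10.7%. The 2 motifs cannot overlap each other, and 6 promoters held both.

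By class, the E-box was in 9 of 14 small subunit promoters, 4 of 12 large subunit promoters, 1 of 2 box C/D, 1 of 4 box H/ACA and 1 of 4 nucleolar phosphoprotein promoters, and in 0 of 6 RNA polymerase I promoters. The ETS sequence was in 5 of 14, 4 of 12, 1 of 2, 2 of 4, 1 of 4 and 3 of 6. The median log2 fold change at 12 h was -1.66 in genes with an E-box and -1.24 in the 26 without, and after Dox it was -1.20 and -1.08. For the ETS sequence the medians were -1.49 and -1.12 with it, and -1.32 and -1.15 without. A match is a stretch of letters and not a measured binding site.

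Windows of 30 bases around the E-box (in capitals, 5' to 3' on the gene's strand) are shown for small subunit factors, the class richest in it, so that the flanking bases can be compared. They lie at chr4:2963374-2963403 (NOP14, minus strand), chr3:51941892-51941921 (RRP9, minus), chr16:69132621-69132650 (UTP4, plus), chr17:51260538-51260567 (UTP18, plus), chr12:101280083-101280112 (UTP20, plus), chr2:28894658-28894687 (WDR43, plus), chr6:41921515-41921544 (BYSL, plus) and chr6:143843354-143843383 (LTV1, plus). The first base of the E-box lay between -16 (UTP4) and 28 (BYSL and LTV1) relative to the start base at 0, and positive positions are within the first exon. The window of the remaining small subunit promoter with an E-box, UTP14A, is not shown. Its E-box lay at -241, and its log2 fold change at 12 h, -0.44, was the smallest fall of the class. UTP18 holds a further copy upstream of the window shown.
NOP14: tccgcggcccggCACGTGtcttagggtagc
RRP9: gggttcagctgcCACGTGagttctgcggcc
UTP4: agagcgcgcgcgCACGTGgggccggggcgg
UTP18: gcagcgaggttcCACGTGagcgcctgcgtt
UTP20: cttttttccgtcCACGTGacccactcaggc
WDR43: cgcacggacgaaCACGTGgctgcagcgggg
BYSL: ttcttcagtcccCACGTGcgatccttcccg
LTV1: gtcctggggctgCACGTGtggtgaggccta
The same window is shown for MRTO4 (chr1:19251807-19251836, plus) and PES1 (chr22:30591880-30591909, minus), 2 large subunit factors called lower at 12 h, and for FBL (chr19:39846356-39846385, minus) and NOP10 (chr15:34343130-34343159, minus), 2 snoRNP core genes that were not called lower at 12 h.
MRTO4: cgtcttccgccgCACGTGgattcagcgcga
PES1: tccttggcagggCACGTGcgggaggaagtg
FBL: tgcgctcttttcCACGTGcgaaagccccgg
NOP10: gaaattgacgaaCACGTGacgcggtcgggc
An E-box was thus present both in promoters of genes with a large fall at 12 h, such as UTP20 at -2.05 and MRTO4 at -2.45, and in promoters of genes with a small one, such as NOP10 at -0.32, UTP14A at -0.44 and RRP9 at -0.67. Windows of 40 bases upstream of the start of TSR1 (chr17:2336458-2336497, minus) and NOP16 (chr5:176388599-176388638, minus) show ETS sequences in capitals. TSR1 holds 2 copies, and in NOP16 a copy on each strand overlaps the other.
TSR1: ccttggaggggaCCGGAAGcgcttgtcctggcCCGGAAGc
NOP16: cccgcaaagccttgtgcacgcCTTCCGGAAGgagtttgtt

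The box C/D core proteins fell in both experiments. NOP56 (chr20:2652145-2658393, plus strand), one of the paired scaffold proteins of the particle, measured 466, 477 and 454 CPM in shERG DMSO and 171, 165 and 171 CPM after Dox, a log2 fold change of -1.46 (SE 0.034, adjusted p = 1.23e-22 in limma). In parental cells it went from 400.2, 388 and 385 CPM in DMSO to 333, 312 and 311 at 4 h, 251, 245 and 244 at 8 h and 133, 145 and 133 at 12 h. Its groups did not overlap at any step, and the log2 fold change at 12 h was -1.51 (SE 0.042, adjusted p = 5.65e-29 in limma). NOP58, the other scaffold protein, was called lower in both, at -1.20 after Dox and -1.14 at 12 h.

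FBL (fibrillarin; chr19:39834458-39846414, minus strand), the methyltransferase of the box C/D particle, fell less with PBITE-1 than with Dox. Its samples measured 182, 198 and 194 CPM in shERG DMSO and 72.4, 70.6 and 70.9 CPM after Dox, and the log2 fold change was -1.43 (SE 0.047, adjusted p = 1.25e-19 in limma). With PBITE-1 it measured 143, 126 and 134 CPM in DMSO and 77.8, 79.4 and 75.4 CPM at 12 h, a log2 fold change of -0.79 (SE 0.053, adjusted p = 1.47e-16 in limma). The response at 12 h was higher than that to Dox by 0.60 (SE 0.073, adjusted p = 1.12e-09 in limma). SNU13, which binds the kink-turn of box C/D RNAs and of U4 small nuclear RNA, was at -0.91 after Dox and was called lower at 12 h with -1.08. Per length, the DMSO levels were 249.7 ± 5.60 TPM (SD, n = 3), a count divided by exon length and scaled to the library, for NOP56, 213 ± 14.05 for FBL, 140.2 ± 4.09 for NOP58 and 82.5 ± 2.39 for SNU13.

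Among the box H/ACA core proteins, DKC1 and NHP2 fell the most and NOP10 the least. DKC1 (dyskerin; chrX:154762742-154777689, plus strand), the pseudouridine synthase of the particle, went from 269, 274 and 286 CPM in shERG DMSO to 84.1, 79.9 and 86.5 CPM after Dox. This was the lowest log2 fold change of the 50 genes after Dox, -1.72 (SE 0.043, adjusted p = 6.28e-22 in limma). At 12 h of PBITE-1 its log2 fold change was -1.39 (SE 0.043, adjusted p = 3.18e-27 in limma), from 283, 267 and 276 CPM in DMSO to 107, 102 and 106 CPM. The fall after Dox was the deeper of the 2, by 0.29 (SE 0.062, adjusted p = 5.39e-05 in limma), and with scaling on library size only the difference was 0.034.

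NHP2 (chr5:178149460-178153967, minus strand), a small RNA-binding protein of the same particle, measured 95.9, 98.5 and 84.4 CPM in DMSO, 80.7, 82.98 and 86.04 at 4 h, 65.2, 64.4 and 69.2 at 8 h and 32.7, 26.3 and 29.1 at 12 h. Most of its fall came after 8 h, with a step from 8 to 12 h of -1.18 (SE 0.077, adjusted p = 2.60e-16 in limma) against -0.33 (SE 0.063) from 4 to 8 h. GAR1 (chr4:109815510-109824740, plus strand) had another course, with 19.1, 19.8 and 21.3 CPM in DMSO, 15.7, 10.5 and 13.01 at 4 h, 10.7, 8.95 and 9.50 at 8 h and 13.8, 10.3 and 11.2 at 12 h. It was called lower at 8 h only, at -1.04 (SE 0.12, adjusted p = 1.28e-09 in limma), and this call was lost without DMSO replicate 3 (-0.996) or without 8 h replicate 2 (-0.98). NOP10, the smallest protein of the particle, was at -0.32 (SE 0.074, adjusted p = 4.04e-04 in limma) after Dox and -0.32 (SE 0.073, adjusted p = 1.60e-04 in limma) at 12 h. With scaling on library size only, the value of NOP10 after Dox was -0.060. In DMSO the TPM of GAR1 was 33.8 ± 1.90, against 226 ± 7.66 for DKC1, 216 ± 8.17 for NOP10 and 212 ± 16.6 for NHP2 (SD, n = 3 each). With the length of the longest transcript in place of all exons, the means were 44.4, 242, 170 and 291 in turn. GAR1 was lowest either way, while the order of DKC1, NOP10 and NHP2 depended on the length used.

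The nucleolar phosphoproteins and chaperones held the most abundant transcripts and NPM1, the only gene of the 50 called higher at 12 h of PBITE-1 than after Dox. NCL (nucleolin), an abundant RNA-binding protein of the nucleolus, had 725 ± 23.2 TPM in DMSO and NPM1 (nucleophosmin), a nucleolar histone and ribosome chaperone, 626 ± 32.3 TPM (SD, n = 3), the 2 highest levels among the 50 genes. With the length of the longest transcript in place of all exons, the order of the pair was the opposite, at 977 and 1071 TPM. All 5 genes of the class were called lower after Dox, and NOLC1, DDX21 and NCL at 12 h, against 7.19% and 15.4% of all genes. The Dox calls of NOLC1 and USP36 were lost with upper-quartile scaling and with library size only.

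NPM1 (chr5:171387116-171411137, plus strand) measured 923, 979.9 and 922 CPM in shERG DMSO and 354, 352 and 385 CPM after Dox, a log2 fold change of -1.38 (SE 0.032, adjusted p = 1.35e-22 in limma). In parental cells it measured 731, 664 and 693 CPM in DMSO, 819, 799.7 and 785 at 4 h, 793, 779.5 and 774 at 8 h and 582, 623 and 644 at 12 h. The 4 h and 8 h samples were all above the DMSO samples, and the 12 h samples were all below them. The log2 fold changes were 0.20 (SE 0.036, adjusted p = 6.80e-06 in limma) at 4 h, 0.17 (SE 0.035, adjusted p = 4.66e-05 in limma) at 8 h and -0.17 (SE 0.036, adjusted p = 3.93e-05 in limma) at 12 h, the smallest fall of the 50 genes at that time. The responses to Dox and to 12 h of PBITE-1 differed by 1.16 (SE 0.053, adjusted p = 1.05e-23 in limma). With library size only it was 0.90 and not called.

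NCL (chr2:231453531-231483641, minus strand) measured 1477, 1411 and 1485 CPM in DMSO and 1455, 1383 and 1397 CPM at 4 h, with overlapping samples and a log2 fold change of -0.047 (SE 0.030, adjusted p = 0.190 in limma). By 12 h it was at 660.1, 681 and 708 CPM, a log2 fold change of -1.09 (SE 0.032, adjusted p = 2.19e-28 in limma), and after Dox it was at -1.48 (SE 0.022, adjusted p = 8.31e-27 in limma). DDX21 (chr10:68956128-68985073, plus strand), a DEAD-box helicase of rRNA synthesis and processing, had a log2 fold change of -1.53 (SE 0.030, adjusted p = 4.19e-24 in limma) after Dox and -1.48 (SE 0.038, adjusted p = 5.25e-30 in limma) at 12 h. Its 2 responses differed by 0.013 (95% interval -0.085 to 0.11). NOLC1 (Nopp140), a chaperone of snoRNPs, was at -1.14 and -1.55. USP36, a nucleolar deubiquitinase, was called lower after Dox (-1.13) and was at -0.71 at 8 h and -0.56 at 12 h of PBITE-1.

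Of the 15 small subunit factors, 12 were called lower after Dox, 1 at 4 h, 6 at 8 h and 10 at 12 h. Of all genes tested, 7.19%, 2.99%, 8.86% and 15.4% were called lower in turn. The subcomplexes that join the precursor first include UTP4, UTP15, WDR43 and WDR75 of the UTP-A complex, UTP18 of the UTP-B complex and RRP9 of the U3 snoRNP. WDR43 (chr2:28894643-28948222, plus strand) measured 176, 186 and 179 CPM in shERG DMSO and 63.00, 68.7 and 64.3 CPM after Dox, a log2 fold change of -1.47 (SE 0.048, adjusted p = 1.03e-19 in limma). It then measured 156, 146 and 157 CPM in DMSO and 39.3, 39.3 and 43.2 CPM at 12 h of PBITE-1, a log2 fold change of -1.91 (SE 0.058, adjusted p = 1.50e-27 in limma). UTP4 was at -0.63 at 8 h and -1.79 at 12 h, with a step from 8 to 12 h of -1.16 (SE 0.092, adjusted p = 9.32e-14 in limma). WDR75 was called in no comparison, with -0.82 after Dox and -0.46 at 12 h.

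UTP15 (chr5:73565443-73583377, plus strand) fell early and was lowest at 8 h. Its samples measured 30.7, 31.7 and 29.6 CPM in DMSO, 17.4, 16.5 and 16.6 at 4 h, 10.7, 9.43 and 9.95 at 8 h and 13.3, 13.1 and 12.2 at 12 h. From 8 to 12 h it rose by 0.35 (SE 0.12, adjusted p = 0.00791 in limma) on the log2 scale, and the 12 h samples lay above the 8 h samples and below the 4 h samples. LTV1 (chr6:143843344-143863812, plus strand), an assembly factor of late small subunit particles, had the same order of groups. It measured 53.6, 50.1 and 53.8 CPM in DMSO, 28.1, 24.4 and 29.3 at 4 h, 10.3, 12.05 and 12.9 at 8 h and 12.9, 13.8 and 16.2 at 12 h, and rose by 0.31 (SE 0.12, adjusted p = 0.0273 in limma) from 8 to 12 h. The 8 h and 12 h samples of LTV1 overlapped. These were the only 2 of the 50 genes with a higher value at 12 h than at 8 h by limma's adjusted p alone, as 27.8% of all genes had.

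RRP9 (chr3:51933430-51941941, minus strand), the U3-specific protein that sits on U3 snoRNA, fell after Dox and late with PBITE-1. It measured 13.4, 11.1 and 12.6 CPM in DMSO, 16.3, 12.5 and 15.7 at 4 h and 14.3, 13.6 and 12.7 at 8 h, log2 fold changes of 0.26 (SE 0.11, adjusted p = 0.0602 in limma) and 0.15 (SE 0.11, adjusted p = 0.246 in limma) in turn. At 12 h it was at -0.67 (SE 0.13, adjusted p = 2.37e-05 in limma) and after Dox at -1.24 (SE 0.12, adjusted p = 6.29e-10 in limma). UTP14A, a processome factor, and DDX10, a DEAD-box helicase, were likewise not lower at 4 h, at 0.012 and 0.23. DDX10 passed the adjusted p in the higher direction at 4 h (adjusted p = 7.33e-04) and in the lower direction at 8 h (-0.58, limma adjusted p = 1.51e-10).

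UTP20 (chr12:101280109-101386616, plus strand), a very large scaffold-like processing factor, had the deepest fall of the class at 12 h. It measured 83.2, 83.1 and 88.2 CPM in DMSO, 77.3, 78.5 and 82.7 at 4 h, 50.5, 51.9 and 50.7 at 8 h and 20.6, 19.8 and 20.97 at 12 h, so that 24.1% of the control level was left. The step from 8 to 12 h was -1.32 (SE 0.075, adjusted p = 5.68e-18 in limma). NOP14, a processome subunit, and RRP12, an assembly and export factor, went the same way, with -1.67 and -1.75 at 12 h and -1.39 and -1.38 after Dox. UTP18 was called after Dox at -1.01, but not without Dox replicate 2 (-0.97). This call was also lost with upper-quartile scaling, with library size only and with 10 counts required in every library.

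BYSL (chr6:41921188-41933046, plus strand), bystin, was the only small subunit factor called at 4 h. It measured 24.4, 22.3 and 19.4 CPM in DMSO, 10.3, 9.45 and 11.6 at 4 h, 6.13, 6.26 and 4.75 at 8 h and 5.88, 5.62 and 5.58 at 12 h, and the 4 h value was -1.07 (SE 0.12, adjusted p = 3.98e-10 in limma). The call at 4 h was lost without DMSO replicate 1 (-0.99) or without 4 h replicate 2 (-0.99). TSR1, a GTPase-like factor of late particles, was at -1.35 at 8 h, -1.94 at 12 h and -1.07 after Dox. NOB1, the endonuclease that makes the 3' end of 18S rRNA, was called after Dox (-1.17) and was at -0.90 at 12 h. Without 12 h replicate 1 it was called there too (-1.05). UTP14A and LTV1, called after Dox at -1.04 and -1.04, were not called without Dox replicate 2 (-0.98 and -0.99), and UTP14A also not without shERG DMSO replicate 3 (-0.99). Neither was called after Dox with upper-quartile scaling, with library size only or with 10 counts required in every library. LTV1 at 4 h (-0.95) was called only without 4 h replicate 3 (-1.005).

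Of the 16 large subunit factors, 9 were called lower after Dox, 3 at 4 h, 8 at 8 h and 12 at 12 h. The shares of all genes called lower were 7.19%, 2.99%, 8.86% and 15.4% in turn. The deepest falls of all 50 genes at 12 h of PBITE-1 were in this class. RRS1, which helps to load the 5S ribonucleoprotein onto the large subunit precursor, measured 36.00, 34.5 and 29.5 CPM in DMSO, 13.4, 14.3 and 13.1 at 4 h, 7.29, 6.13 and 8.25 at 8 h and 3.57, 3.66 and 4.24 at 12 h. Its log2 fold change was -1.28 (SE 0.10, adjusted p = 8.92e-14 in limma) at 4 h and -3.10 (SE 0.16, adjusted p = 5.29e-20 in limma) at 12 h, where 11.6% of the control level was left. After Dox it went from 42.2, 43.3 and 39.8 CPM to 11.99, 13.4 and 15.04 CPM, a log2 fold change of -1.64 (SE 0.094, adjusted p = 1.71e-14 in limma).

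PPAN (chr19:10106289-10111634, plus strand), the human Peter Pan homolog, measured 37.8, 39.3 and 35.2 CPM in DMSO, 18.97, 17.4 and 16.4 at 4 h, 7.82, 9.09 and 10.8 at 8 h and 6.03, 6.15 and 4.77 at 12 h. The log2 fold change was -1.09 (SE 0.090, adjusted p = 3.96e-13 in limma) at 4 h and -2.73 (SE 0.13, adjusted p = 8.18e-21 in limma) at 12 h, against -1.28 (SE 0.081, adjusted p = 1.38e-13 in limma) after Dox. PPAN shares 97 exon bases on the same strand with P2RY11, which had 15 to 120 counts per library against 71 to 679 for PPAN. MRTO4 (chr1:19251539-19260128, plus strand), which holds the place of the stalk protein on the precursor, was at -2.45 (SE 0.083, adjusted p = 3.64e-26 in limma) at 12 h and -1.31 (SE 0.062, adjusted p = 3.27e-16 in limma) after Dox. NOP16, a nucleolar protein of the large subunit precursor, was at -2.23 (SE 0.12, adjusted p = 4.05e-19 in limma) and -1.53 (SE 0.088, adjusted p = 1.88e-14 in limma). At 4 h NOP16 was at -0.99 and was called without DMSO replicate 3 (-1.08) or without 4 h replicate 1 (-1.08).

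NIP7 (chr16:69337996-69343111, plus strand), a processing factor of the large subunit precursor, made most of its fall within 4 h. It measured 33.3, 33.6 and 33.7 CPM in DMSO, 15.6, 12.9 and 14.1 at 4 h, 13.4, 14.3 and 15.9 at 8 h and 11.3, 12.6 and 11.8 at 12 h. The 3 treated groups lay far below DMSO and the 4 h and 8 h samples overlapped. The step from 4 to 8 h was 0.019 (SE 0.11, adjusted p = 0.897 in limma), with a 95% interval of -0.19 to 0.23. The step from 8 to 12 h was -0.26 (SE 0.11, adjusted p = 0.0376 in limma), with all 12 h samples below all 4 h and 8 h samples. It did not pass under 7 of 22 alternatives. The log2 fold change against DMSO was -1.25 (SE 0.092, adjusted p = 1.66e-14 in limma) at 4 h and -1.49 (SE 0.095, adjusted p = 2.45e-17 in limma) at 12 h. NIP7 shares 957 exon bases with COG8 on the other strand, which had 99 to 242 counts against 152 to 590 for NIP7.

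BOP1 had the opposite course. This member of the PeBoW complex with PES1 and WDR12 measured 46.7, 48.1 and 42.4 CPM in DMSO, 53.4, 46.1 and 45.5 at 4 h, 42.5, 41.99 and 40.6 at 8 h and 17.8, 15.9 and 18.6 at 12 h. Its log2 fold change was 0.076 (SE 0.068, adjusted p = 0.365 in limma) at 4 h, -0.12 (SE 0.069, adjusted p = 0.101 in limma) at 8 h and -1.39 (SE 0.087, adjusted p = 1.55e-17 in limma) at 12 h, and the step from 8 to 12 h was -1.27 (SE 0.089, adjusted p = 2.97e-15 in limma). The partner PES1 had already reached -1.19 (SE 0.075, adjusted p = 3.48e-17 in limma) at 8 h, and WDR12 was at -0.86 (SE 0.071). At 12 h PES1 was called at -1.61, while WDR12, at -0.998, stood just short of the threshold and was called without DMSO replicate 2 (-1.03), without 4 h replicate 1 (-1.002), without 12 h replicate 2 (-1.03) or without 12 h replicate 3 (-1.01). After Dox the values were -1.38, -0.97 and -0.88 for BOP1, PES1 and WDR12, and only BOP1 was called. PES1 was called after Dox without shERG DMSO replicate 3 (-1.02).

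NOP2, which methylates a cytosine of 28S rRNA, measured 78.97, 81.05 and 78.3 CPM in DMSO and 22.1, 21.6 and 21.98 CPM at 12 h, a log2 fold change of -1.86 (SE 0.072, adjusted p = 4.15e-24 in limma), and was at -1.30 after Dox. WDR74, a factor of late nucleolar large subunit particles, was at -0.53 at 8 h and -1.57 at 12 h. Among the DEAD-box helicases, DDX51 was called at 8 h (-1.32) and 12 h (-1.45) and DDX56 at 12 h (-1.22), while DDX18 was called in no comparison (-0.77 at 12 h, -0.83 after Dox). All 3 helicases were between -0.83 and -0.75 after Dox and none was called there.

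Of the nucleolar GTPases, GNL2 was called at 12 h at -1.04, but not without 12 h replicate 2 (-0.95). GNL3 (nucleostemin) went from 307, 287 and 295 CPM in DMSO to 188, 183 and 192 at 8 h and 188, 212 and 199.9 at 12 h. It was at -0.66 (SE 0.043) at 8 h, -0.57 (SE 0.043) at 12 h and -0.98 (SE 0.036) after Dox and was called in no comparison. RRP1B, a nucleolar regulatory and processing factor, was called after Dox (-1.12) and was at -0.78 at 12 h.

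RNA polymerase I genes had the smallest class median after Dox and at 12 h, but not at the earlier times. At 4 and 8 h their median was -0.30 and -0.78, and only the large subunit was lower, at -0.32 and -1.03. The small subunit was close, at -0.25 and -0.77. Of the 6 genes, 2 were called lower after Dox, 0 at 4 h and 3 at 8 h and 12 h. Among all genes, 7.19% were called lower after Dox, and 2.99%, 8.86% and 15.4% at 4, 8 and 12 h. The 2 largest subunits of the enzyme were both called lower with PBITE-1. POLR1A (chr2:86020216-86106155, minus strand) measured 141, 142 and 148 CPM in DMSO, 109.8, 114 and 115 at 4 h, 57.9, 53.96 and 55.2 at 8 h and 37.97, 38.7 and 40.7 at 12 h, a log2 fold change of -1.87 (SE 0.056, adjusted p = 7.45e-28 in limma). After Dox it went from 176, 187 and 177 to 108, 97.2 and 102 CPM, at -0.82 (SE 0.044, adjusted p = 5.78e-15 in limma). POLR1B (chr2:112541915-112577150, plus strand) was called lower at 8 h (-1.08), 12 h (-1.52) and after Dox (-1.15).

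POLR1C (chr6:43509702-43562419, plus strand), a subunit shared with RNA polymerase III, fell early and had small later steps. It measured 51.8, 51.6 and 48.8 CPM in DMSO, 34.7, 34.3 and 35.2 at 4 h, 33.96, 36.2 and 33.5 at 8 h and 32.9, 34.7 and 29.98 at 12 h. The log2 fold change was -0.54 (SE 0.067, adjusted p = 8.93e-09 in limma) at 4 h, the steps from 4 to 8 h and from 8 to 12 h were -0.0055 (SE 0.074) and -0.091 (SE 0.073) with overlapping samples, and the value after Dox was -1.10 (SE 0.075, adjusted p = 6.42e-13 in limma). TWISTNB (POLR1F), another subunit, was called in no comparison, at -0.69 at 12 h and -0.74 after Dox.

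UBTF (chr17:44205033-44221626, minus strand), the upstream binding factor of rRNA genes, measured 194, 195 and 192 CPM in shERG DMSO and 144, 146 and 138 CPM after Dox, a log2 fold change of -0.44 (SE 0.038, adjusted p = 7.97e-11 in limma). With PBITE-1 it went from 185, 181 and 184 CPM in DMSO to 96.2, 86.9 and 89.4 at 8 h and 84.1, 71.3 and 80.7 at 12 h, a log2 fold change of -1.22 (SE 0.051, adjusted p = 3.14e-23 in limma) at 12 h. Its call at 8 h (-1.01) was lost without 8 h replicate 2 (-0.97) or replicate 3 (-0.998). RRN3 (TIF-IA), which brings RNA polymerase I to the promoter, was at -0.55 at 8 h, -0.44 at 12 h and -0.75 after Dox. A pseudogene of RRN3 held up to 13.7% of the counts of the gene and pseudogene together, so that its value is uncertain.

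**Figure D3:**
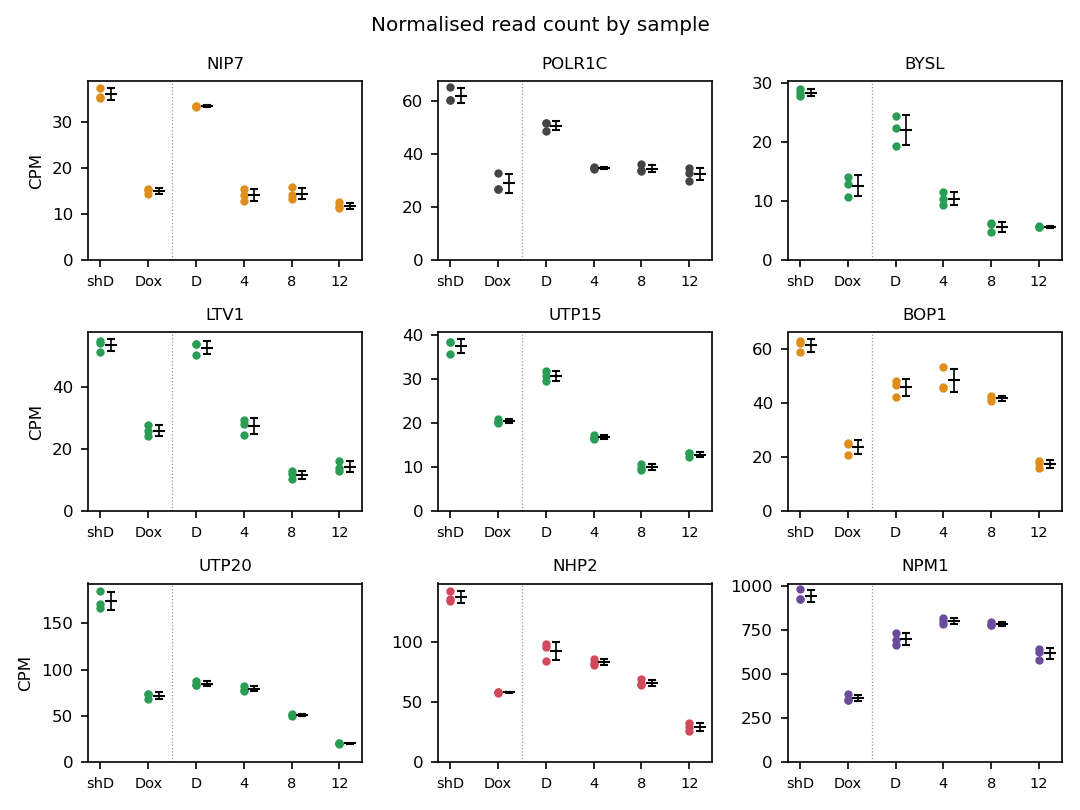
Points are the CPM of single samples of 9 genes (y axis, linear from 0) in shERG DMSO (shD), Dox, DMSO (D) and at 4, 8 and 12 h of PBITE-1, with the mean and SD of 3 samples beside them; colours mark classes as in the plot of class medians. NIP7 and POLR1C make most of their fall by 4 h, LTV1 and UTP15 are lowest at 8 h, BOP1, UTP20 and NHP2 drop between 8 and 12 h, and NPM1 is lowest after Dox.

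The steps between times were tested directly, and since they share the 8 h samples the 2 steps are not independent. From 4 to 8 h, 4 of the 50 genes were called lower and 0 higher, against 2.22% and 4.43% of all genes, and these were LTV1 at -1.24 (SE 0.11), NOP16 at -1.07 (SE 0.13), MRTO4 at -1.05 (SE 0.073) and POLR1A at -1.02 (SE 0.054). From 8 to 12 h, 5 were called lower and 0 higher, against 6.59% and 3.48%, and these were UTP20 at -1.32 (SE 0.075), BOP1 at -1.27 (SE 0.089), NHP2 at -1.18 (SE 0.077), UTP4 at -1.16 (SE 0.092) and WDR74 at -1.04 (SE 0.13). By limma's adjusted p alone, 44 were lower from 4 to 8 h, against 26.3% of all genes, and 36 from 8 to 12 h, against 32.5%. For 0 genes called higher, the counts with an unadjusted p under 0.05 were 0 and 4, and edgeR and DESeq2 also called 0. All 3 later samples lay below all 3 earlier ones for 45 genes from 4 to 8 h and 37 from 8 to 12 h, against 29.8% and 34.2% of all genes, and above for 0 and 2, against 30.5% and 29.5%. The lowest of the 3 times was 12 h for 43 of the 50 genes and 8 h for GAR1, GNL3, LTV1, NOP10, RRN3, USP36 and UTP15.

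Single libraries moved some of these step calls. NOP16 was not called from 4 to 8 h without 4 h replicate 1 (-0.98) and POLR1A not without 8 h replicate 2 (-0.99). NOP2 was called without 4 h replicate 2 (-1.01), RRS1 without 8 h replicate 3 (-1.01), and PPAN without 4 h replicate 3 (-1.02) or 8 h replicate 3 (-1.06). From 8 to 12 h, WDR74 was not called without 8 h replicate 3 (-0.995) or 12 h replicate 3 (-0.96). DDX21, at -0.99, was called without 8 h replicate 3 (-1.003) or 12 h replicate 2 (-1.005) or 3 (-1.01), and RRP12, at -0.98, without 8 h replicate 1 (-1.001) or 3 (-1.02) or 12 h replicate 1 (-1.03).

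Dox and 12 h of PBITE-1 each called 33 genes lower, and 25 genes were in both sets. With 33 of the 50 genes in each set, a large overlap arises even without a relation between the sets. The share of all genes called lower in both was not counted, so the overlap is no measure of agreement. FBL, NOB1, NPM1, POLR1C, RRP1B, RRP9, USP36 and UTP14A were called after Dox only, and DDX51, DDX56, GNL2, PES1, POLR1A, SNU13, UBTF and UTP15 at 12 h only. With upper-quartile scaling the Dox calls of POLR1C, RRP1B, USP36 and UTP14A were lost. With library size only, those of NOB1 and RRP9 were lost as well. The Dox calls of FBL and NPM1 held under every alternative. To ask which genes responded unequally, the difference between the 2 responses was tested over all 18 samples. It was called lower at 12 h for 4 of the 50 genes, against 15.9% of all genes, and higher for 1, against 13%. The 4 genes were RRS1 with -1.50 (SE 0.19, adjusted p = 2.44e-09 in limma), PPAN with -1.49 (SE 0.16, adjusted p = 1.93e-11 in limma), MRTO4 with -1.17 (SE 0.10, adjusted p = 6.23e-14 in limma) and POLR1A with -1.10 (SE 0.072, adjusted p = 4.71e-18 in limma), and the higher gene was NPM1.

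By limma's adjusted p alone, 27 genes fell further at 12 h and 12 fell further after Dox, against 35.1% and 33.3% of all genes. The latter 12 included NPM1, FBL, UTP14A (0.56), USP36 (0.53), RRP9 (0.53) and POLR1C (0.42). For the genes called in 1 of the 2 sets, the difference itself passed for all but NOB1 (0.23, adjusted p = 0.145 in limma). The experiments also differ in cell line, and the length of Dox treatment is not in the labels, and neither can be told apart from the agent. Scaling on library size only, which moved the median of all genes after Dox to 0.28, raised the number called lower at 12 h than after Dox from 4 to 10, and lowered the number called after Dox from 33 to 17.

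**Figure D4:**
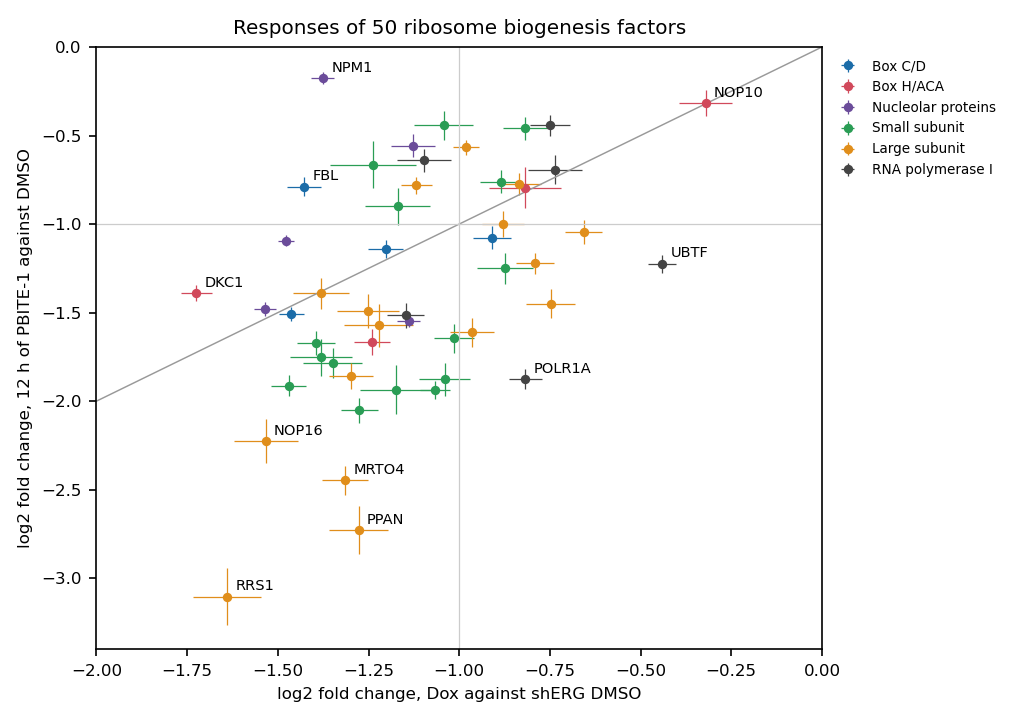
Each point is 1 of the 50 genes, with its log2 fold change after Dox against shERG DMSO on the x axis and after 12 h of PBITE-1 against DMSO on the y axis; bars are standard errors, colours are classes, the diagonal marks equal responses and the pale lines mark -1. NPM1 and FBL lie above the diagonal and RRS1, PPAN, MRTO4 and POLR1A well below it.

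Untreated, all 50 genes differed between the 2 lines by less than 1 on the log2 scale, and more were higher in shERG DMSO than lower. Their median difference was 0.15, against 0.0033 over all genes. The 2 DMSO sets belong to separate experiments, so line and experiment cannot be told apart. Between shERG DMSO and parental DMSO, 0 of the 50 genes were called lower and 0 higher, against 5% and 1.19% of all genes, and edgeR and DESeq2 also called 0. By limma's adjusted p alone, 27 were higher in shERG DMSO and 2 lower, against 23.3% of all genes in each direction, and with an unadjusted p under 0.05 the numbers were 32 and 4. All 3 shERG DMSO samples lay above all 3 DMSO samples for 31 genes and below for 4, against 26.5% and 26.4% of all genes. UTP20 differed the most, with 0.87 (SE 0.046, adjusted p = 2.44e-20 in limma), and the 2 lower genes were DKC1 (-0.16) and NOLC1 (-0.079).

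Other genes of the pathway came from 5 lists of 127 tested genes outside the 50, and no test compared them with the 50. Of these 127, 32 (25.2%) were called lower after Dox, where 7.19% of all genes were. At 4, 8 and 12 h of PBITE-1 the numbers called lower were 1 (0.787%), 23 (18.1%) and 44 (34.6%), against 2.99%, 8.86% and 15.4% of all genes. The number called higher was 0 after Dox, 1 at 4 h, 2 at 8 h and 1 at 12 h, against 12%, 7.28%, 14.9% and 17.1% of all genes. By limma's adjusted p alone, 120 were lower and 1 higher after Dox, 64 and 12 at 4 h, 104 and 12 at 8 h and 106 and 11 at 12 h. Of all genes, 35.3%, 24.7%, 37% and 39.4% were lower and 35.1%, 26.4%, 35.9% and 39.4% higher in turn. The median log2 fold change of the 127 genes was -0.70 after Dox and -0.17, -0.59 and -0.78 at the 3 times. Among 40 further small subunit factors, 13 (32.5%) were called lower after Dox and 17 (42.5%) at 12 h, against 7.19% and 15.4% of all genes. At 12 h they ranged from UTP25 at -2.63 to RIOK2, a late maturation kinase, at 0.82. Among 42 further large subunit factors the counts were 11 (26.2%) and 19 (45.2%), from CCDC86 at -2.70 to ZNF622 at 0.82.

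Among 16 further RNA polymerase I factors, 3 (18.8%) were called lower after Dox and 2 (12.5%) at 12 h, against the 7.19% and 15.4% of all genes. POLR1G was the lowest of them in both, at -1.64 and -2.07, and TAF1B, a subunit of the promoter selectivity factor, was at 0.89 at 12 h. Of 11 snoRNP assembly factors, 2 (18.2%) and 1 (9.09%) were called lower, with the ATPase RUVBL1 at -1.20 and -1.18. Of 18 exosome and trimming factors, 3 (16.7%) and 5 (27.8%) were called lower, with the core subunit EXOSC5 at -1.68 and -2.81. In that list the noncanonical poly(A) polymerase TENT4B was called higher, at 1.58 (SE 0.062, adjusted p = 5.31e-24 in limma) at 12 h.

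The 79 cytosolic ribosomal protein genes encode the proteins that these factors assemble with rRNA. After Dox all 79 were lower by limma's adjusted p alone, against 35.3% of all genes, with a median log2 fold change of -0.72. With PBITE-1 the median was 0.082, 0.11 and -0.026 at 4, 8 and 12 h. By the adjusted p alone, 2 were lower and 37 higher at 4 h, against 24.7% and 26.4% of all genes. At 8 h 10 were lower and 46 higher, against 37% and 35.9%. At 12 h 30 were lower, 24 higher and 25 did not pass, where 39.4% of all genes were lower and 39.4% higher. Called lower were 1 of the 79 (1.27%) after Dox and 1 (1.27%) at each time of PBITE-1. Of all genes, 7.19% were called lower after Dox and 2.99%, 8.86% and 15.4% at the 3 times. The number of the 79 called higher was 0 in each, against 12%, 7.28%, 14.9% and 17.1% of all genes. RPS20, a protein of the small subunit, had the highest log2 fold change at 12 h, 0.43. Ribosomal protein genes have many near-identical pseudogenes, and how their reads were assigned is not known. Whether the 50 factors and the ribosomal proteins differ in their response was not tested.

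The labels do not say whether the counting used strand, so reads of overlapping genes on opposite strands cannot be told apart. Beside NIP7, this touches TSR1, which shares 1146 exon bases with SRR (71 to 357 counts against 701 to 3765), NHP2, which shares 414 with RMND5B (664 to 1238 against 402 to 2113), NOP16, which shares 344 with ARL10 (26 to 249 against 111 to 939) and 227 with HIGD2A (363 to 856), UTP15, which shares 244 with ANKRA2 (131 to 334 against 111 to 569), PES1, which shares 246 with TCN2 (28 to 55 against 279 to 1275), and POLR1C, which shares 348 with XPO5 (1839 to 4163 against 347 to 894). Box C/D and H/ACA snoRNA genes lie inside NOP56 (5 genes), NOP58 (4), GNL3 (6), NCL (3), WDR43 (3), DKC1 (2), TSR1 (2) and PPAN (2), and 0 snoRNA genes are listed in the table. Pseudogene counts other than that of RRN3 were at most 1.42% of the gene and pseudogenes together.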

How the data were processed

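RNA-seq was performed by the authors on rRNA-depleted total RNA of 18 VCaP samples in 6 groups of 3. The deposited table holds whole-number counts per Ensembl gene, without normalization. The sources differ on how the authors made it, since the paper's methods name Kallisto, edgeR and limma-voom, while the submitters' processing notes list STAR, featureCounts and hg38 with no role. The annotation and use of strand are not given in the sources used here. Totals were 11308600 to 17483423 counts per sample.

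Of 22034 genes, 22011 were matched to a symbol and 21921 to GENCODE release 29 (GRCh38), which gave positions and exon lengths. The 14164 genes kept by edgeR's filterByExpr received TMM factors and went through voom, lmFit and eBayes (R 4.3.3, edgeR 4.0.16, limma 3.58.1), two-sided, with Benjamini-Hochberg adjustment over all of them. Each experiment had a fit of its own (6 VCaP-shERG, 12 parental samples), and the difference between responses and between control lines in 1 fit of all 18. TPM used the summed length of all exons and ranks genes within DMSO only. The study describes the PBITE-1 samples as biological replicates. For the shERG samples the sources do not say whether they came from separate cultures, so p-values there measure only the spread between these samples, which may be technical. Chi-square per degree of freedom between samples of a group was 1.71 to 5.17, so none was counted as a copy. Simulated counts for Dox and for 12 h of PBITE-1 had 200 changed genes, drawn from well-counted ones. By adjusted p alone, at least 196 were recovered in each. Far more genes passed in the data, so this is no check of the scaling when most genes move.

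The 50 genes, their classes and the further lists (small subunit, large subunit, RNA polymerase I, snoRNP assembly, exosome and trimming, ribosomal proteins) were chosen with earlier results of these data known. Of 17 snoRNA host long noncoding RNAs on a list, 0 were matched, and they were not analysed here. All 50 genes could be named, with ERG and MYC as checks and, from each further list, the lowest and highest gene after Dox and at 12 h, except for an item that is not reported here. MYC was at -1.95 after Dox and -3.14, -3.63 and -2.97 at 4, 8 and 12 h. Promoters are RefSeq GRCh38.p14. As alternatives, DESeq2 1.42.0 and edgeR's quasi-likelihood test replaced limma, upper-quartile, RLE or library-size scaling replaced TMM, the filter was dropped (21560 genes) or required 10 counts per library (11807 genes), the fit held all 18 samples or only the 2 groups, the replicate number was a block, and samples were left out singly.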

Additional observations from a re-analysis of the deposited data

Results flagged for a closer look

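Tests of the difference itself called 1 to 5 of the 50 genes in each of 4 cases, given beside the share of all genes. The response to 12 h of PBITE-1 was lower than that to Dox for 4 of the 50 genes (RRS1, PPAN, MRTO4 and POLR1A) and higher for 1 (NPM1), by the interaction in limma with an adjusted p under 0.05 and an absolute difference above 1. Of all genes tested, 15.9% and 13% were called in these directions, which are larger shares than among the 50. From 4 to 8 h of PBITE-1, 4 genes (LTV1, NOP16, MRTO4 and POLR1A) fell further, and from 8 to 12 h 5 genes did (UTP20, BOP1, NHP2, UTP4 and WDR74). These are 8% and 10% of the 50, against 2.22% and 6.59% of all genes. Groups of 3 samples are too small to tell whether a single library is an outlier, and counts with 1 sample left out are given below.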

How the results depend on the processing

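Of 400 values (50 genes in 8 comparisons), alternatives gave the same direction and side of the adjusted p threshold in 8750 recomputations, lost it in 172, gained it in 73 and reversed the direction in 5. All 5 reversals were in the difference between 12 h of PBITE-1 and Dox, where the main values are near 0 and not called, and were NOP58 (-0.24), DDX18 (-0.24), TWISTNB (-0.26) and DDX21 (-0.25) with library size only and DDX21 (-0.11) with upper-quartile scaling. Library size only moved the median of all genes to 0.28 after Dox and -0.28 in that difference (upper quartile 0.18 and -0.15), and no filter to 0.15 to 0.16 at 8 and 12 h. Library size only gave 17 genes lower after Dox, 10 lower at 12 h than after Dox and 0 higher. The other alternatives stayed within 1.5 times the main counts. Leaving out 1 sample gave 30 to 33 genes lower after Dox, 3 to 5 at 4 h, 16 to 18 at 8 h, 33 to 34 at 12 h, 3 to 6 from 4 to 8 h, 5 to 6 from 8 to 12 h, 4 to 4 and 1 to 1 lower and higher at 12 h than after Dox, and 0 to 0 in all other directions. Deviations of same-numbered samples from their group means correlated between -0.043 and 0.080, so the numbers do not pair the samples. With the replicate number as a block, 33 genes were lower after Dox, 4 at 4 h, 18 at 8 h, 33 at 12 h, 4 from 4 to 8 h, 5 from 8 to 12 h, 4 lower and 1 higher at 12 h than after Dox, and 0 in all other directions. With 3 samples a group, an exact permutation test of 1 gene cannot go below p = 0.1.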
